A study of Mus musculus with 7 samples.

Results

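The genes described here are 10 transcription factor genes of the embryonic limb, heart and pharynx. They comprise 8 T-box genes (Tbx1, Tbx2, Tbx3, Tbx4, Tbx5, Tbx15, Tbx18 and Tbx20), together with Pitx1 and Lmx1b. They were picked by gene symbol from the deposited table of 25461 genes, and all 10 had a mean of at least 1 FPKM (a measure of fragments per kilobase that is scaled to depth), the limit for testing, which 16095 genes reached.

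T-box proteins share a DNA-binding domain, the T-box, and act as activators or repressors of transcription, often in a dose-dependent manner. In the limb, Tbx5 marks the forelimb bud, whereas Tbx4 marks the hindlimb bud, where the homeobox factor Pitx1 lies upstream of it; Lmx1b specifies the dorsal side of both. In the heart, Tbx5 and Tbx20 are activators of the chamber program, and Tbx2 and Tbx3 repress it in the atrioventricular canal and conduction system, while Tbx1 acts in the pharyngeal arches and outflow tract.

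RNA had been sequenced from whole mouse embryos of the B6C3F1 strain at embryonic day 11.5, 3 without SLMAP3 (KO) and 4 wild types (WT), with 1 embryo per library. The KO embryos were homozygous for an allele of Slmap that lacks exon 3, produced from floxed mice with a CMV-cre transgene and then bred without the cre. This allele removes the long isoform, SLMAP3, and leaves the shorter ones. The WT embryos carried no deleted allele, and the tail of each embryo had been taken for genotyping. The labels name the KO embryos KOAC8-6, KOAC10-5 and KOAC10-8, and the WT embryos KOAC8-1, KOAC10-7, KOAC9-1 and KOAC10-2.

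The level of Slmap in KO embryos was 65.1% of that in WT embryos, and the groups did not overlap, with 16.01 to 19.6 FPKM in KO and 22.8 to 31.2 FPKM in WT embryos. The log2 fold change was -0.59 ± 0.13 (SE, n = 3 and 4; limma, adjusted p = 0.278; two-sided exact permutation over 35 divisions of the embryos, p = 0.0286, which is the smallest they can give). Estimated counts on genes were 5.45e+07 to 8.18e+07 per embryo. Markers of limb mesenchyme and heart muscle, and the pharyngeal genes Pax1 and Pax9, were present in every embryo, whereas trophoblast markers did not exceed 0.841 FPKM. The embryos differed in 2 other tissues. The summed level of 12 liver markers was 32.1 to 45.8 FPKM in KOAC10-5, KOAC10-7 and KOAC10-2 and 497 to 893 FPKM in the other 4 embryos. The summed level of 12 skeletal muscle markers was 85.2 to 151 FPKM in KO and 223 to 371 FPKM in WT embryos.

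No difference between KO and WT embryos was detected in any of the 10 genes. None had an adjusted p under 0.05, a call made for 0.0373% of all genes tested (6 of 16095). None had an unadjusted p under 0.05 either, which 11.5% of all genes tested had. The KO and WT values did not overlap for 1 of the 10, Tbx5, as for 11.6% of all genes. The KO embryos were all above the WT embryos for Tbx5 (5.61% of all genes) and all below them for none of the 10 (5.98% of all genes). Their log2 fold changes ran from -0.27 for Pitx1 to 0.64 for Tbx5, with a median of 0.077 beside 0.011 over all genes tested. The change was positive for 7 and negative for 3 of them, and 53.1% of all genes had a positive change. In whole embryos, fewer cells that express a gene and less RNA in each of them cannot be told apart.

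**Figure D1:**
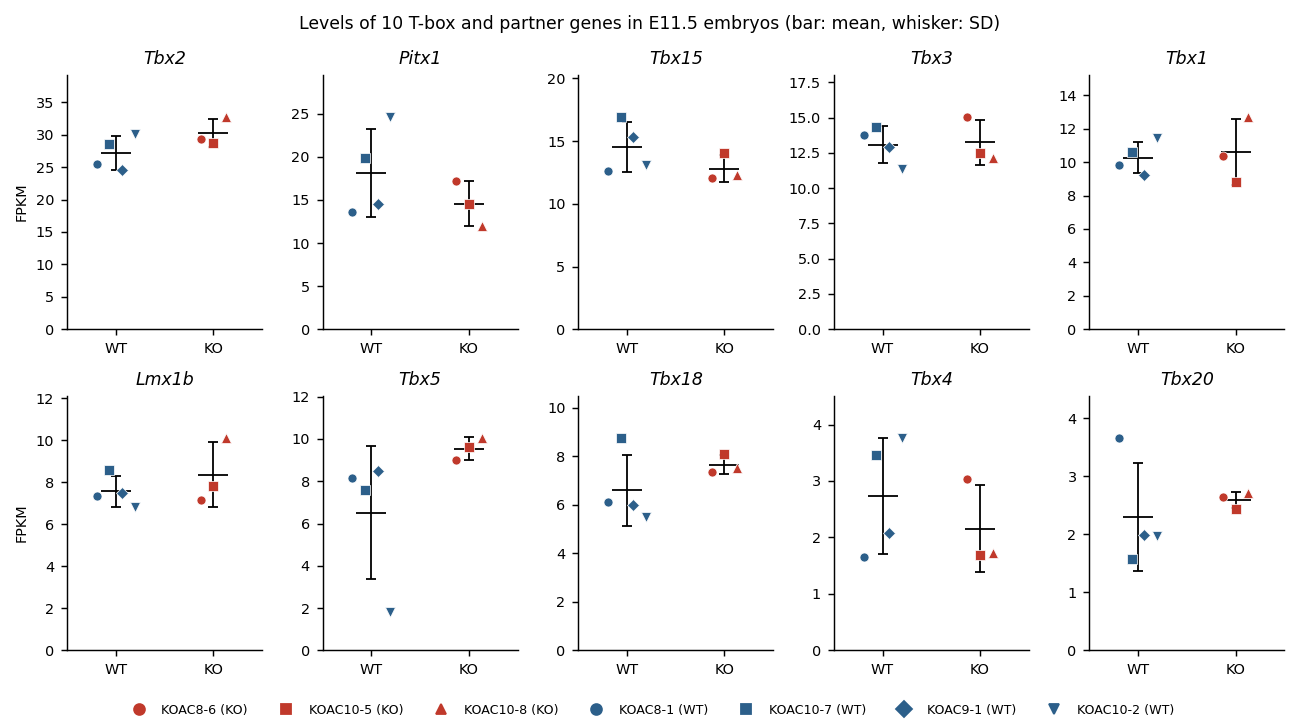
FPKM of each gene (vertical axis, from 0) in the 4 WT embryos (blue) and the 3 KO embryos (red), with 1 symbol per embryo, the mean as a bar and the SD as whiskers. The groups overlap in 9 of the 10 panels; in that of Tbx5 the KO embryos lie at 8.99 to 10.04 FPKM, above 3 WT embryos at 7.61 to 8.49 FPKM and 1 at 1.81 FPKM.

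FPKM is scaled to transcript length, so that levels can be set beside each other between genes. Over the 7 embryos, Tbx2 had the highest mean level, 28.5 FPKM, and exceeded Pitx1 in every embryo. Pitx1 (16.6 FPKM), Tbx15 (13.8), Tbx3 (13.1) and Tbx1 (10.4 FPKM) followed, and each of these neighbors kept its order in only 5 of 7 embryos. Lmx1b (7.90 FPKM), Tbx5 (7.82) and Tbx18 (7.05 FPKM) formed the next step, below Tbx1. Lmx1b was below Tbx1 in 7 of 7 embryos, but exceeded Tbx5 in only 3. Tbx4 (2.49 FPKM) and Tbx20 (2.43 FPKM) were lowest, with a range apart from that of Tbx18 and an order between themselves that held in 4 of 7 embryos.

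The 2 least abundant of these genes, Tbx4 and Tbx20, are among the 5 of the 10 for which a RefSeq promoter was available here. The 250 bases before their RefSeq start sites are shown next to the levels (GRCm38.p6, 5′ to 3′ on the strand of the gene). The Tbx4 window lies inside the gene as GENCODE annotates it (85886422 to 85916097). The sequence before that gene's outermost annotated start is therefore not shown. The Tbx20 window adjoins its annotated gene, which ends at 24774303. Capitals mark TATAA on either strand; CCAAT was also searched on both strands and was not found.
Tbx4, chr11:85896515-85896764, plus strand: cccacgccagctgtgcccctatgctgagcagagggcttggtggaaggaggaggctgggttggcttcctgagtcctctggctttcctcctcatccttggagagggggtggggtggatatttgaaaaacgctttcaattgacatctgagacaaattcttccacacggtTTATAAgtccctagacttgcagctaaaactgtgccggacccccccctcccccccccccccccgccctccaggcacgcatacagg
Tbx20, chr9:24774304-24774553, minus strand: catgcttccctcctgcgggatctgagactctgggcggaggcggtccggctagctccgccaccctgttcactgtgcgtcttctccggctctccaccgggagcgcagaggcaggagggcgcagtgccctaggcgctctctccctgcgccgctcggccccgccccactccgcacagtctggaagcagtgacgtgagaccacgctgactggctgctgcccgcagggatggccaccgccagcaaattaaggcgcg
The Tbx4 window held overlapping TATAA matches on the 2 strands, 83 and 84 bases before the start, and its GC content was 58.4%. The Tbx20 window held none, at a GC content of 68.8%. Among 32851 mouse promoter windows of this length, 22.8% held TATAA, 33.8% held CCAAT, and the median GC content was 52.4%. A T-box binding motif, AGGTGTGA, was not among the letters of the 6 promoters given for 5 of the genes, from 250 bases before to 50 after the start, and it occurred in 1.28% of all promoters of that length. TAATCC, a Pitx-type site, was likewise not among those letters, and 7.06% of all promoters held it.

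The forelimb factor Tbx5 showed the largest difference between the groups, and 1 WT embryo set its size. Its level was 8.99, 9.61 and 10.04 FPKM in the KO embryos KOAC8-6, KOAC10-5 and KOAC10-8. It was 8.18, 7.61, 8.49 and 1.81 FPKM in the WT embryos KOAC8-1, KOAC10-7, KOAC9-1 and KOAC10-2. Every KO embryo was thus above every WT embryo, and KOAC10-2 was far below the rest. The log2 fold change was 0.64 ± 0.42 (SE; limma, adjusted p = 0.585; exact permutation test, two-sided, p = 0.171). Without KOAC10-2 it was 0.21 ± 0.075 (limma, unadjusted p = 0.0271, adjusted p = 0.452). With all embryos the unadjusted limma p was 0.174. KOAC10-2 was singled out for its own Tbx5 level, which by itself lowers p, so this fit is a description and no test. The low value was not one of few reads, since an estimated 296 counts lay on Tbx5 in KOAC10-2 and 1246 to 2176 in the other embryos. Tbx5 lies on chromosome 5 (GRCm38, 119832668 to 119885219, plus strand), 148 kb beyond the end of Tbx3.

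The hindlimb pair Tbx4 and Pitx1 varied widely among embryos of the same genotype. Tbx4 (chromosome 11, 85886422 to 85916097, plus strand), which drives hindlimb outgrowth, was at 3.04, 1.69 and 1.73 FPKM in KOAC8-6, KOAC10-5 and KOAC10-8. In the WT embryos KOAC8-1, KOAC10-7, KOAC9-1 and KOAC10-2 it was at 1.66, 3.45, 2.08 and 3.76 FPKM. The lowest and the highest embryo were both WT, and the log2 fold change was -0.23 ± 0.25 (limma, adjusted p = 0.742). Pitx1 (chromosome 13, 55825051 to 55836192, minus strand), which gives the hindlimb its identity, had levels of 17.2, 14.5 and 11.998 FPKM in the 3 KO embryos, in the same order. Its WT levels were 13.6, 19.8, 14.5 and 24.6 FPKM, with the highest again in KOAC10-2. The KO embryos lay in the lower part of the WT range or below it, at a log2 fold change of -0.27 ± 0.22 (limma, adjusted p = 0.640). With 1 embryo left out, the change of Pitx1 ran from -0.39 (without KOAC8-6) to -0.12 (without KOAC10-2), and that of Tbx4 from -0.42 to -0.099 (without the same embryos). An antisense gene, Gm47071, shares 6.21% of the exon bases of Pitx1, and reads of the 2 strands are not told apart by this library type. A lincRNA on the same strand, Gm28760, shares another 4.07%.

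The dorsal limb factor Lmx1b had KO and WT means of 8.35 ± 1.55 and 7.55 ± 0.741 FPKM (SD, n = 3 and 4). Its levels were 7.14, 7.82 and 10.1 FPKM in KOAC8-6, KOAC10-5 and KOAC10-8 and 7.35, 8.58, 7.47 and 6.82 FPKM in KOAC8-1, KOAC10-7, KOAC9-1 and KOAC10-2. Only KOAC10-8 exceeded the WT range, and the log2 fold change of 0.12 ± 0.12 (limma, adjusted p = 0.721) was -0.0093 without that embryo. Lmx1b is also active outside the limb, in midbrain and hindbrain neurons and the kidney, so that its level in a whole embryo is a sum over these tissues.

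**Figure D2:**
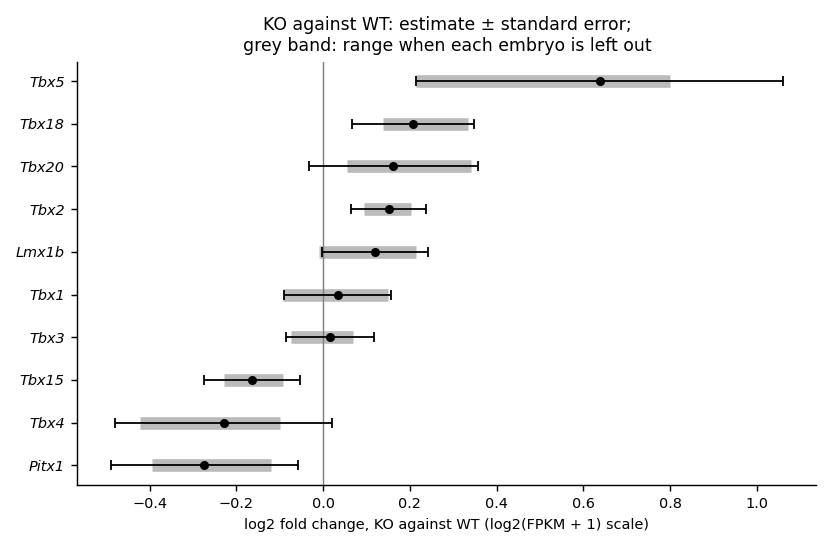
Log2 fold change of each gene, KO against WT, on the log2(FPKM + 1) scale (horizontal axis), with its standard error as whiskers and, as a gray band, the range of the estimate when each of the 7 embryos was left out in turn. Tbx5 has the widest band, from 0.21 to 0.80; the bands of Tbx1, Tbx3 and Lmx1b cross 0.

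Neither of the repressors Tbx2 and Tbx3 passed the test, and their KO means were 111% and 101% of the WT means. Both act in the atrioventricular canal, the limb bud margins and other sites. Tbx2 (chromosome 11, 85832551 to 85841948, plus strand) was at 29.3, 28.6 and 32.7 FPKM in KOAC8-6, KOAC10-5 and KOAC10-8 and at 25.5, 28.5, 24.5 and 30.1 FPKM in KOAC8-1, KOAC10-7, KOAC9-1 and KOAC10-2. All KO embryos were above 3 of the 4 WT embryos, but 2 of them were below KOAC10-2, and the log2 fold change was 0.15 ± 0.086 (limma, adjusted p = 0.537). Tbx3 (chromosome 5, 119670669 to 119684724, plus strand) had levels of 15.04, 12.5 and 12.2 FPKM in these KO embryos, and of 13.7, 14.3, 12.9 and 11.3 FPKM in these WT embryos. These groups covered nearly the same range, at a log2 fold change of 0.016 ± 0.10 (limma, adjusted p = 0.965). Its antisense gene Tbx3os1, with a mean of 55.4 FPKM, overlaps 1.74% of the exon bases of Tbx3. Tbx2 and Tbx4 are neighbors, 44.5 kb apart, as are Tbx3 and Tbx5.

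Tbx20, a heart muscle factor and one of the least abundant of these genes, was at 2.65, 2.44 and 2.71 FPKM in KOAC8-6, KOAC10-5 and KOAC10-8. In KOAC8-1, KOAC10-7, KOAC9-1 and KOAC10-2 it was at 3.66, 1.58, 2.00 and 1.97 FPKM. The 3 KO embryos were close together, inside a WT range whose top was KOAC8-1, and the log2 fold change was 0.16 ± 0.19 (limma, adjusted p = 0.769). Without KOAC8-1 it was 0.34 ± 0.098 (limma, unadjusted p = 0.0123, adjusted p = 0.415), and with all embryos the unadjusted p was 0.434. KOAC8-1 was singled out for its own Tbx20 level, so this fit too is a description and no test. Tbx18, which marks the sinus venosus, epicardium and somite mesenchyme, had levels of 7.34, 8.09 and 7.54 FPKM in these KO embryos, and of 6.12, 8.76, 6.00 and 5.50 FPKM in these WT embryos. The KO embryos were above 3 of the 4 WT embryos and below KOAC10-7, at a log2 fold change of 0.21 ± 0.14 (limma, adjusted p = 0.595). An opposite-strand gene, D030062O11Rik, covers 20.6% of the exon bases of Tbx18 and was at a mean of 0.208 FPKM. Without KOAC10-7 the change of Tbx18 was 0.33 ± 0.076 (limma, unadjusted p = 0.00413, adjusted p = 0.489), and with all embryos the unadjusted p was 0.183. KOAC10-7 was likewise singled out for its own Tbx18 level, so no test is drawn from this fit.

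Tbx1, the pharyngeal arch factor, was at 10.3, 8.80 and 12.7 FPKM in KOAC8-6, KOAC10-5 and KOAC10-8 and at 9.80, 10.6, 9.25 and 11.4 FPKM in KOAC8-1, KOAC10-7, KOAC9-1 and KOAC10-2. KO embryos held both the lowest and the highest value, and the log2 fold change was 0.034 ± 0.12 (limma, adjusted p = 0.935). Tbx15, expressed in limb and trunk mesenchyme, had levels of 12.04, 14.02 and 12.3 FPKM in these KO embryos, and of 12.6, 16.9, 15.3 and 13.1 FPKM in these WT embryos. Of the KO embryos, 2 were just below the WT range and KOAC10-5 was inside it, at a log2 fold change of -0.16 ± 0.11 (limma, adjusted p = 0.591).

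The WT embryo KOAC10-2 set the range of several limb genes in opposite directions. Of the 10 genes it held the lowest level of 4 (Tbx5, Tbx3, Lmx1b and Tbx18) and the highest of 2 (Pitx1 and Tbx4). Of all genes tested it held the lowest level in 12% and the highest in 10.3%. The KO embryo KOAC10-8 held the highest level of 4 of the 10 genes (Tbx1, Tbx2, Tbx5 and Lmx1b) and of 26.4% of all genes tested. The following Hox genes were chosen after their values were seen. Hoxd13, Hoxd12 and Hoxd11, distal limb and trunk-end genes, were at 3.76, 1.69 and 3.27 FPKM in KOAC10-2, the lowest of the 7 embryos, beside 8.00 to 11.2, 3.27 to 5.05 and 4.47 to 8.1 FPKM in the other 6. Hoxa13 was also lowest there, at 1.72 FPKM beside 2.22 to 3.66 FPKM. Hoxa11 was not, at 2.63 FPKM in KOAC10-2 beside 2.05 FPKM in KOAC8-1 and 2.31 FPKM in KOAC9-1. Hoxc10, which is expressed in the hindlimb and caudal trunk, was instead highest there, at 9.21 FPKM. Its other WT levels were 2.74, 3.18 and 1.34 FPKM, and its KO levels were 4.23 FPKM in KOAC8-6, 0.0414 in KOAC10-5 and 0.0647 FPKM in KOAC10-8. Hoxc11, too low on average to be tested, was also highest in KOAC10-2, at 1.06 FPKM.

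Prrx1, a gene of limb mesenchyme in general, was at 56.2 FPKM in KOAC10-2 and at 53.9 to 64.9 FPKM in the other embryos. The summed heart muscle markers were at 421 FPKM in KOAC10-2, the highest WT value. Of the 45 limb genes tested, KOAC10-2 held the lowest level in 10 (22.2%) and the highest in 5 (11.1%), beside 12% and 10.3% of all genes. It was not alone in this, since KOAC9-1 held the lowest level in 9 (20%) and KOAC10-8 the highest in 15 (33.3%). KOAC10-2 was also 1 of the 3 embryos in which liver markers other than Ttr were nearly absent. KOAC10-5 and KOAC10-7, which shared that, had Tbx5 at 9.61 and 7.61 FPKM. Whether the libraries of these 3 embryos held the same tissues as the others was not tested, and the levels of Tbx5, the Hox genes and their ratios in KOAC10-2 are read with that limit.

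**Figure D3:**
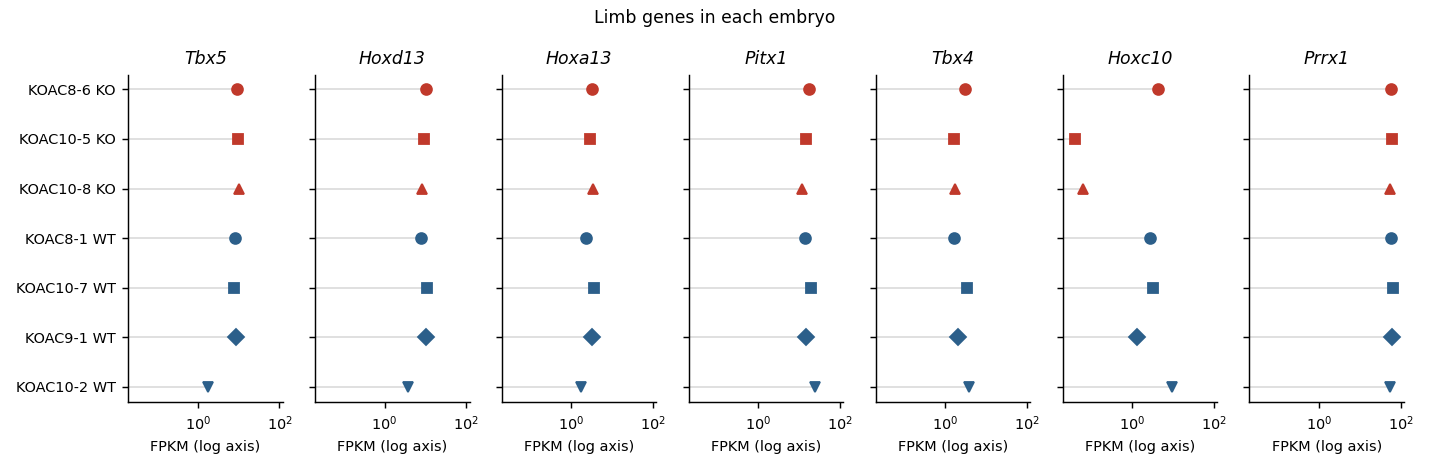
FPKM of 7 limb genes (horizontal log axis) in each of the 7 embryos (rows; KO red, WT blue). In KOAC10-2, the bottom row, Tbx5, Hoxd13 and Hoxa13 are lowest at 1.81, 3.76 and 1.72 FPKM, while Pitx1, Tbx4 and Hoxc10 are highest at 24.6, 3.76 and 9.21 FPKM and Prrx1 is at 56.2 FPKM.

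Ratios of 2 genes within an embryo do not depend on its sequencing depth, and 6 of them were compared. No call was made between KO and WT embryos (exact permutation tests, two-sided, lowest adjusted p = 0.814 over the 6), and a difference in a single ratio could not have passed, since its adjusted p cannot fall below 0.171. The log2 ratio of Tbx4 to Tbx5, which mark the hindlimb and the forelimb bud, was -1.56, -2.51 and -2.54 in KOAC8-6, KOAC10-5 and KOAC10-8. In KOAC8-1, KOAC10-7 and KOAC9-1 it was -2.30, -1.14 and -2.03, whereas in KOAC10-2 it was 1.05. Tbx4 exceeded Tbx5 in that WT embryo only, and the ratio spanned 12.02-fold over the 7 embryos. Because Tbx5 is also a heart gene, its level in a whole embryo is not that of limb buds alone. The mean difference of the Tbx4 to Tbx5 ratio, KO minus WT, was -1.10 on the log2 scale with all embryos and -0.38 without KOAC10-2.

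The log2 ratio of Pitx1 to Tbx4, which both mark the hindlimb but were measured here in whole embryos, was steady instead. It ran from 2.50 to 3.10, a span of 1.51-fold, and its mean was 2.80 ± 0.30 in KO and 2.77 ± 0.21 in WT embryos (SD, n = 3 and 4). That of Tbx2 to Tbx3 spanned 1.45-fold, at 1.196 ± 0.23 in KO and 1.06 ± 0.24 in WT embryos. That of Tbx4 to Prrx1 spanned 2.42-fold, and that of Tbx20 to the heart muscle gene Tnnt2 spanned 2.21-fold with KOAC8-1 highest.

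**Figure D4:**
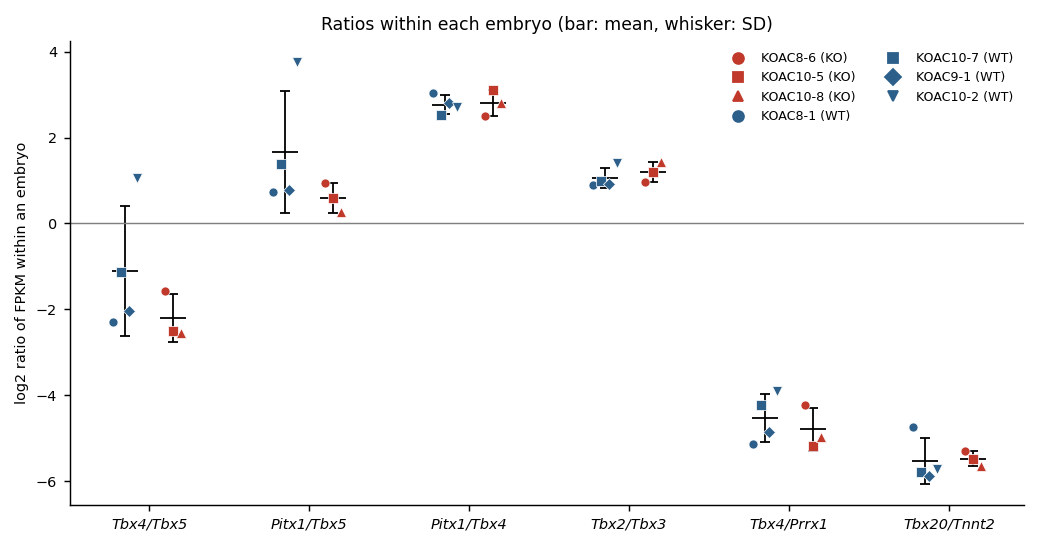
Log2 ratio of FPKM of 2 genes within each embryo (vertical axis) for 6 ratios, WT embryos in blue and KO embryos in red, with means as bars and SD as whiskers. Pitx1/Tbx4 lies between 2.50 and 3.10 in all 7 embryos, whereas Tbx4/Tbx5 is at 1.05 in the WT embryo KOAC10-2 and between -2.54 and -1.14 in the other 6.

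The levels of Tbx4 and Pitx1 moved together over the 7 embryos. Pearson's r of log2(FPKM + 1) was 0.93 (exact permutation over all pairings of the embryos, p = 0.00179, adjusted p = 0.00714 over 4 pairs of genes) and Spearman's rho was 0.89 (exact permutation p = 0.0123, adjusted p = 0.0492). Without KOAC10-2 and KOAC10-7, the embryos farthest from the median of Tbx4, r was 0.83 over 5 embryos. With each embryo left out in turn it was 0.92 to 0.95, and the adjusted p reached 0.05, so that the call was lost, without KOAC8-6, KOAC10-7 or KOAC10-2. For Tbx5 and Tbx20, Tbx15 and Tbx18, and Tbx2 and Tbx3, r was 0.34, 0.31 and -0.29 (exact permutation, adjusted p = 0.517 for each). The 4 pairs were chosen with earlier results of these data known, and the adjustment covers these pairs only. Within the 4 embryos of the label series KOAC10, r of Tbx4 and Pitx1 was 0.95, given as a description; KOAC8, with 2 embryos, and KOAC9, with 1, allow no value. The genes with the most similar levels over the 7 embryos, out of 11505 or 11506 compared, included AA465934 and Mmd for Tbx4 (r = 0.96 and 0.95), Adprhl2 and Tln2 for Pitx1 (0.96 and 0.93), and Gm24307 and Gpkow for Tbx5 (both 0.99). For Tbx2 they included Zfp664 and the heart muscle gene Myh6 (0.99 and 0.98). These were picked from many genes over few embryos and are given as a description.

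The other T-box genes gave no call either. Of 9 listed, with T and Tbxt as symbols of the same gene, 8 were in the table and 5 were tested, and none had an unadjusted p under 0.05. Mga, a widely expressed member, was at 23.2 to 28.9 FPKM in KO and 24.7 to 29.9 FPKM in WT embryos. Tbr1 and Eomes, of forebrain neurons and their progenitors, were at 2.53 to 4.66 and 2.88 to 4.06 FPKM in KO embryos. In WT embryos they were at 3.14 to 4.89 and 3.22 to 4.09 FPKM, so that the groups overlapped for both. T (brachyury), a gene of the tail bud and notochord, was at 0.646 to 1.48 FPKM over all 7 embryos.

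The wider lists of limb, heart and pharynx genes held 10 or 11 genes each with an unadjusted p under 0.05, and none that passed adjustment. Of 45 limb genes tested, 11 had an unadjusted p under 0.05, 9 higher and 2 lower in KO embryos (24.4%, beside 11.5% of all genes), with a median log2 fold change of 0.067. Of 31 heart genes, 10 had one, 5 in each direction (32.3%, median 0.087), and of 36 pharynx genes, 11 had one, 8 higher and 3 lower (30.6%, median 0.019). The adjusted p was under 0.05 for 0 genes of each list. The lists were chosen with earlier results of these data known, and they share genes such as Fgf8. The shares are therefore a description and no test. Without the KO embryo KOAC10-8 the counts were 6, 4 and 7, where 7.80% of all genes had an unadjusted p under 0.05. Without the WT embryo KOAC9-1 they were 7, 5 and 5, where 7.85% of all genes did.

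Among the limb genes, Fgf8, the apical ridge growth factor that Tbx5 and Tbx4 maintain through Fgf10, was at 5.11, 4.64 and 7.76 FPKM in KOAC8-6, KOAC10-5 and KOAC10-8. It was at 3.10, 3.25, 2.21 and 3.92 FPKM in KOAC8-1, KOAC10-7, KOAC9-1 and KOAC10-2. The groups did not overlap, and the log2 fold change was 0.72 ± 0.19 (limma, adjusted p = 0.308). Fgf8 is also expressed in the pharynx, the tail bud and the brain. Sall4 and Sall1, zinc finger factors of limb and heart, had log2 fold changes of 0.49 and 0.33, and Sp8, a factor of the apical ridge, one of 0.41 (limma, adjusted p = 0.409, 0.286 and 0.347). Prrx2, of limb mesenchyme, was at 0.22 and Meis1, of the proximal limb, at -0.18 (adjusted p = 0.312 and 0.361). The KO values of these genes all lay outside the WT range, which was a condition for naming them and held for 11.6% of all genes. Fgf10 itself, the mesenchymal target of Tbx5, was at 3.19, 3.13 and 3.15 FPKM in KO and 2.46, 2.90, 2.99 and 2.55 FPKM in WT embryos, at a log2 fold change of 0.16 (adjusted p = 0.482); it was chosen after its values were seen.

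Among the heart genes, those below the WT range in every KO embryo were Actn2, a protein of the sarcomere, Mef2c, a muscle factor, Tcf21, of the epicardium, and Smyd1, of muscle. Their log2 fold changes were -0.48, -0.47, -0.43 and -0.32 (limma, adjusted p = 0.317, 0.354, 0.403 and 0.274). Actn2, Mef2c and Smyd1 are also genes of skeletal muscle. Of 11 tested skeletal muscle markers, 8 had an unadjusted p under 0.05, all lower in KO embryos (0 adjusted), beside 11.5% of all genes tested. The part of skeletal muscle in these values was not tested. Irx3, of the ventricle and neural tube, was above the WT range, at 0.32 (limma, adjusted p = 0.347). For these heart genes too, lying outside the WT range was a condition for naming them and held for 11.6% of all genes. Of 6 heart muscle markers, 4 had an unadjusted p under 0.05 (11.5% of all genes tested did), 3 higher and 1, Actn2, lower in KO embryos.

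Among the pharynx genes, Fgf8 and Tcf21 recurred. Foxa2, of pharyngeal endoderm and floor plate, had a log2 fold change of 0.30, Tfap2a, of neural crest, one of 0.25, and Chd7, a chromatin remodeler, one of 0.25 (limma, adjusted p = 0.403, 0.324 and 0.379). Smad7, an inhibitor of TGF-beta and BMP signaling, was at 0.21 (adjusted p = 0.397). Each of these was higher in every KO embryo than in every WT embryo, as were 5.61% of all genes. Lying outside the WT range was a condition for naming them.

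**Figure D5:**
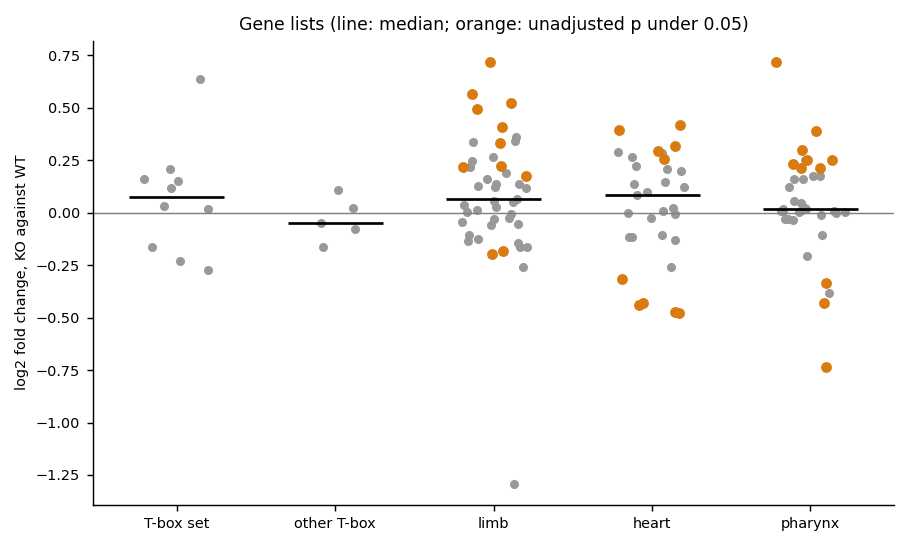
Log2 fold change of each tested gene, KO against WT (vertical axis), in the T-box set with Pitx1 and Lmx1b and in 4 lists of other genes, with the median of each list as a line and genes of unadjusted p under 0.05 in orange. The orange genes number 0 of 10, 0 of 5, 11 of 45, 10 of 31 and 11 of 36, and none has an adjusted p under 0.05.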

How the data were processed

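Total RNA of 7 whole embryos had been made into unstranded TruSeq RNA v2 libraries. The authors deposited 1 FPKM value per gene and embryo; their processing notes name Salmon, DESeq2, MultiQC and the GRCm38 build, with versions not given in the sources used here. The deposited table also holds a mean signal per gene over all embryos (normalized counts averaged by the authors), used here only to estimate counts, and the authors' own log2 fold change, its standard error and p-values, which were not used.

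KO and WT embryos were compared on log2(FPKM + 1), over genes whose mean reached 1 FPKM, with limma 3.58.1 in R 4.3.3 (lmFit, eBayes with a trend, no covariate, Benjamini-Hochberg over 16095 genes, threshold 0.05). The fit was tested on simulated data. Exact permutation tests over 35 divisions of the embryos served for single values (scipy 1.17.1). Depth per embryo, 0.811 to 1.22 of the average, was estimated from the steps between low values, on the assumption that FPKM is proportional to the normalized count, and precision refers to counting error only. The meaning of the embryo label series, and whether embryos were littermates, is not given. Positions came from the GENCODE annotation of GRCm38.

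The genes, lists and tests were chosen with earlier results of these data known. Genes of the lists were named where the unadjusted p was under 0.05 and the KO values all lay outside the WT range, at most 6 per list by size; others are said to be chosen after their values were seen. Alternatives were other pseudocounts, filters and scalings, the label series as a block, Afp as a covariate, a robust fit, and embryos left out.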

Additional observations from a re-analysis of the deposited data

Results flagged for a closer look

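The level of Tbx5 in the WT embryo KOAC10-2 (1.81 FPKM) stood apart from the other 3 WT embryos: its gap to the nearest of them was 0.868 of the range of the group, above Dixon's limit of 0.829 for 4 samples. The log2 ratio of Tbx20 to Tnnt2 in the WT embryo KOAC8-1 (-4.73) stood apart likewise, with a gap of 0.852 of the range. In all, 16 genes and ratios were examined in this way in the WT embryos, and chance flags about 1 group in 20. The group of 3 KO embryos was not examined.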

How the results depend on the processing

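Of 430 values under alternatives, 388 kept their direction and their side of the threshold (or moved little), 22 changed sign, 17 counts moved by over 1.5 times and 3 correlations lost their call. The number of the 10 genes with an adjusted p under 0.05 was 0 in every fit, and the adjusted p of a single gene was never below 0.401. The number with an unadjusted p under 0.05 was 0 to 2 with 1 embryo left out. It was 2 without KOAC10-2, where 9.96% of all genes had such a p. It was also 2, Tbx2 and Tbx18, without the 3 embryos nearly lacking liver transcripts. There, 1730 of all 16046 genes tested had such a p. Those fits left out KOAC10-5, KOAC10-7 and KOAC10-2, where Tbx4, Pitx1 and Tbx20 came to 0.22, 0.032 and -0.023, and the differences in log2 ratio of Tbx4/Tbx5, Pitx1/Tbx4, Tbx4/Prrx1 and Tbx20/Tnnt2 to 0.11, -0.27, 0.40 and -0.17. With the label series as a block, Tbx1 came to -0.010. With a pseudocount of 1, Pitx1/Tbx4 came to -0.044 and Tbx20/Tnnt2 to -0.040. Leaving out 1 embryo in turn, the log2 fold changes ranged from -0.092 to 0.15 for Tbx1, -0.073 to 0.069 for Tbx3 and -0.0093 to 0.21 for Lmx1b, the ratio differences from -0.12 to 0.18 for Pitx1/Tbx4 and -0.071 to 0.31 for Tbx20/Tnnt2, and r of Tbx15 and Tbx18 from -0.24 to 0.55. The r of Tbx4 and Pitx1 kept to 0.92 to 0.95, but its adjusted p was 0.05 without KOAC8-6, KOAC10-7 or KOAC10-2. The counts of limb, heart and pharynx genes with an unadjusted p under 0.05 ranged from 6 to 13, 4 to 9 and 5 to 10 with 1 embryo left out, where the share of all genes ranged from 7.80% to 16.4% (the latter without KOAC10-5, where the limb count was 13). With the label series as a block, 7 limb and 5 pharynx genes had one (8.69% of all genes). With a minimum mean of 5 FPKM, 7 limb and 7 pharynx genes did in shorter lists of 29 genes each (11.7% of all genes). Without the 3 embryos nearly lacking liver transcripts, 14 limb, 9 heart and 6 pharynx genes did (1730 of all 16046 genes tested). Causes were not tested. The minimum mean of 5 FPKM left out Tbx4 and Tbx20. With 3 and 4 whole embryos, the standard errors ran from 0.086 for Tbx2 to 0.42 for Tbx5 (log2). None of the observed differences, the largest being the 0.64 of Tbx5, was called. The size of a difference that could be missed thus varied between genes.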
